A study of Homo sapiens with 8 samples.

Results

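CA2, PEG10, ATP6V0E2, HPSE, SH3RF2 and LYN are 6 genes without a known role in the division cycle itself whose messenger RNA was higher in MCF10A cells after siRNA against p53 than after control siRNA. They were matched by gene symbol among the 29991 entries of the expression table. All 6 were found, each in a single row, and each lay above the detection floor in all 8 libraries. MCF10A is an immortalised, non-tumorigenic human breast epithelial line with basal features. The siRNA treatments were 4: siLATS1/2/p53 cells received siRNA against the kinases LATS1 and LATS2 together with siRNA against p53, siLATS1/2 cells the siRNA against both kinases, sip53 cells the siRNA against p53, and siControl cells a control siRNA. Each of the 4 groups had 2 libraries of polyadenylated RNA, and the libraries numbered 1 and 2 came from separate batches of this cell line, per the labels. The siRNAs lower transcripts transiently and do not remove the genes.

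p53 is a transcription factor that switches on growth-arrest and repair genes, among them CDKN1A, whose product p21 restrains cyclin-dependent kinases, and MDM2, whose product limits p53. Many genes that p53 holds down are cell division genes, which are thought to be reached indirectly through p21 and the RB-family complexes. LATS1 and LATS2 are the last kinases of the Hippo pathway and restrain the coactivators YAP and TAZ. The 6 genes belong to different processes: acid-base balance (CA2), an imprinted gene domesticated from a retrotransposon (PEG10), organelle acidification (ATP6V0E2), turnover of heparan sulfate in the matrix (HPSE), a scaffold and ubiquitin ligase (SH3RF2) and a SRC-family tyrosine kinase (LYN).

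Because the genes moved together with p53 siRNA, promoters are shown for the 3 of them that were matched in a table of RefSeq promoters of build GRCh38.p14, each covering 250 bases before and 50 bases after a transcription start. HPSE is at chr4:83335104-83335403 on the minus strand, SH3RF2 at chr5:145936328-145936627 on the plus strand and ATP6V0E2 at chr7:149872718-149873017 on the plus strand. Where a gene had 3 annotated starts, as for HPSE and ATP6V0E2, the first window listed was taken. Capitals mark matches, on either strand, to TTTGAA (the core of the cell cycle homology region of many cell division promoters), GGAATG (bound by the TEAD partners of YAP), GGGCGG (the GC box), TATAAA (the TATA box) and the p53 half-site.
HPSE: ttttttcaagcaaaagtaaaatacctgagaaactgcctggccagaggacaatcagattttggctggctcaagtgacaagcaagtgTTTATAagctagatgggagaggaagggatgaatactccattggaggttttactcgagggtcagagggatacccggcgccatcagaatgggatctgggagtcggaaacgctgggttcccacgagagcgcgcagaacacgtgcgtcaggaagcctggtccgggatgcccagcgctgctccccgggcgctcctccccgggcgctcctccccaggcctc
SH3RF2: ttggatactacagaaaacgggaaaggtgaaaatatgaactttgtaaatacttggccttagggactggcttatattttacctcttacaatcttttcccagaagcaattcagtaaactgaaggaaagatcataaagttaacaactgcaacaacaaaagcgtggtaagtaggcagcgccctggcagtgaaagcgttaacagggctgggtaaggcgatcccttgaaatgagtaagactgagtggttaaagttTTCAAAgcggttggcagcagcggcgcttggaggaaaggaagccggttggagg
ATP6V0E2: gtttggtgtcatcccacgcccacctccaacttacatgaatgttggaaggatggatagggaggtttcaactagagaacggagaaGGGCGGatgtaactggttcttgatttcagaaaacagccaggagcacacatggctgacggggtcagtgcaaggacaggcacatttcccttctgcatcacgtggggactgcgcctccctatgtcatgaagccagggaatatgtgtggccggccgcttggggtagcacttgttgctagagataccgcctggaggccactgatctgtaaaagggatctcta
The windows differed in what they held. The SH3RF2 window had TTTGAA on the reverse strand, starting at base 249 of 300, a match found in 15.2% of 35116 promoters of this length. The HPSE window had TATAAA on the reverse strand at base 86 (11.5% of promoters), and the ATP6V0E2 window had GGGCGG at base 84 (45.0% of promoters). None of the 3 windows held GGAATG (14.0% of promoters) or the p53 half-site (6.63%), and no motif was shared by all 3. The other windows of HPSE held GGGCGG and not TATAAA. The G and C content was 56.7% for HPSE, 44.3% for SH3RF2 and 53% for ATP6V0E2, beside a median of 58.7% over all promoters. A match is a run of letters and was not tested for binding.

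The levels are normalised log2 values, not divided by transcript length, so they are compared between libraries and not between genes. Values under 5 had been set to 5 before deposit. Read totals were not given. Estimated from the steps between low values, they ran over 11.3 to 37.1 M per library, with the lowest estimates in replicate 1 of siLATS1/2/p53 and of siControl. By that estimate the values of the 6 genes stood for an estimated 336 reads (ATP6V0E2 in siControl) to 7603 reads (PEG10). The kinase transcripts followed the labels: LATS1 was 1.77 ± 0.08 (SE) lower and LATS2 1.24 ± 0.10 lower with LATS1/2 siRNA, averaged over both p53 states. CDKN1A fell by 2.95 ± 0.19 and MDM2 by 1.60 ± 0.13 in siLATS1/2/p53 relative to siLATS1/2. All 9 markers of basal-type breast epithelium looked up, such as KRT5 and TP63, were above the floor in every library, and 9 of 11 markers of blood, endothelium, fibroblasts and hormone-receptor-positive cells were at the floor in every library, the others being COL1A1 (6.60 to 7.75) and ESR1 (5 to 6.26).

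The genes were picked on sip53 over siControl, so that difference is a description here and carries no test. CA2 had the largest difference, 1.40 ± 0.13 (SE from limma, log2), a 2.64-fold higher level in sip53. PEG10 followed with 1.17 ± 0.13 (2.25-fold), ATP6V0E2 with 0.81 ± 0.11 (1.75-fold), HPSE with 0.75 ± 0.10 (1.69-fold), SH3RF2 with 0.73 ± 0.09 (1.66-fold) and LYN with 0.72 ± 0.10 (1.64-fold). By size they ranked 3, 8, 48, 57, 60 and 65 among all 217 called rises. Among the 132 of these above the median expression level they ranked 1, 3, 5, 6, 8 and 10. Their place among the called rises follows from how the genes were picked and is no test of them. Of the 12315 entries tested, 1.76% were called higher and 2.1% lower, or 16% and 10% under a replicate block, that is with the batch of cells as a term. Both sip53 libraries were above both siControl libraries for all 6 genes, as for 31.4% of entries, and each batch of cells showed each difference, the widest spread being that of ATP6V0E2, with 0.98 in batch 1 and 0.63 in batch 2.

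**Figure D1:**
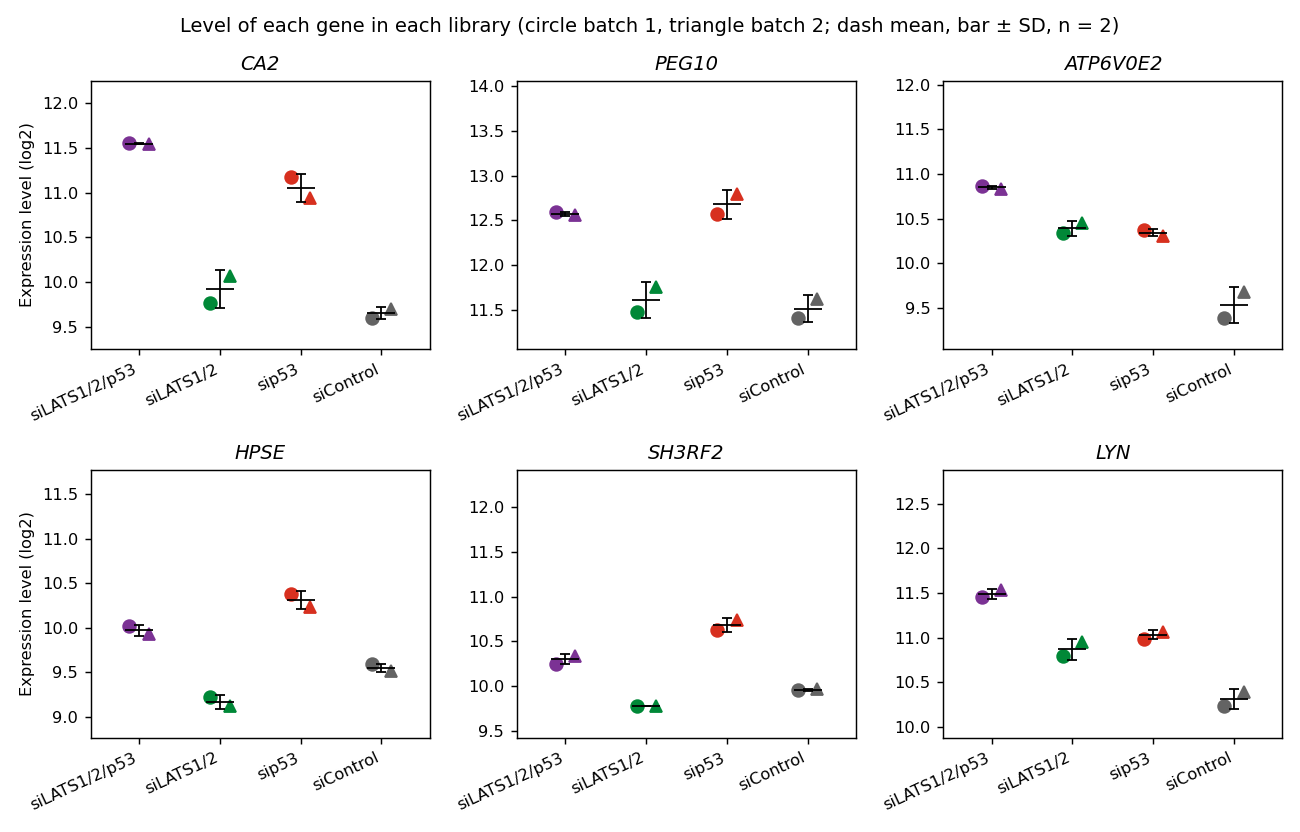
Expression level (log2, vertical axis, the same span in every panel) of the 6 genes in each library, by siRNA group, with circles for batch 1, triangles for batch 2, and the mean ± SD of 2 libraries. In CA2 the 4 libraries with p53 siRNA sit between 10.94 and 11.56, above the other 4 at 9.60 to 10.07, while in ATP6V0E2 the siLATS1/2 libraries (10.34 and 10.45) reach the level of the sip53 libraries (10.37 and 10.31).

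The rise with p53 siRNA was then examined as siLATS1/2/p53 against siLATS1/2, a difference between 4 libraries the choice did not use. The spread in the fit came from all 8 libraries, including the sip53 and siControl libraries that chose the genes. All 6 genes were higher in siLATS1/2/p53 and passed limma with Benjamini-Hochberg adjustment over all entries, where 11.3% of entries were called higher and 3.22% lower (33.8% and 9.72% under the replicate block). Both siLATS1/2/p53 libraries were above both siLATS1/2 libraries for all 6 genes, as for 46.1% of entries. The median difference was 0.71 over the 6 genes, beside 0.15 over all entries tested. Rescaling the libraries by medians of ratios moved the median over all entries to 0.002 and the share of calls that were higher to 45.8%, against 77.9% without it, so each difference below is also given after rescaling.

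CA2 encodes the cytosolic carbonic anhydrase that interconverts carbon dioxide and bicarbonate. It was 11.56 and 11.55 in the siLATS1/2/p53 libraries (replicates 1 and 2), against 9.77 and 10.07 in the siLATS1/2 libraries. The groups were far apart, and both siLATS1/2/p53 libraries were also above both sip53 libraries, at 11.17 and 10.94, and the siControl libraries, at 9.60 and 9.70. The difference from siLATS1/2 was 1.64 ± 0.13 (3.11-fold, adjusted p = 0.00267) and 1.48 after rescaling (adjusted p = 0.00322). It was 1.79 in batch 1 and 1.48 in batch 2.

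PEG10 is a paternally expressed imprinted gene whose proteins resemble retroviral Gag and Pol. It was 12.59 and 12.56 in siLATS1/2/p53, against 11.47 and 11.75 in siLATS1/2. The sip53 libraries were at 12.57 and 12.80, and the siControl libraries at 11.41 and 11.62. The libraries thus formed a high pair of groups with p53 siRNA and a low pair without it, and within each pair the ranges overlapped. The difference between siLATS1/2/p53 and siLATS1/2 was 0.96 ± 0.13 (1.95-fold, adjusted p = 0.00659) and 0.81 after rescaling (adjusted p = 0.0141).

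HPSE encodes heparanase, the endoglycosidase that cuts heparan sulfate chains of proteoglycans. It was 10.02 and 9.93 in siLATS1/2/p53, against 9.22 and 9.12 in siLATS1/2. It was highest in sip53, at 10.38 and 10.23, and the siControl libraries lay at 9.59 and 9.52. None of the 4 groups overlapped another, as was also so for CA2, SH3RF2 and LYN. The share of all entries with such a pattern was not counted. The siLATS1/2/p53 libraries were higher than siLATS1/2 by 0.80 ± 0.10 (1.75-fold, adjusted p = 0.00619), or 0.65 after rescaling (adjusted p = 0.0106), with 0.79 in batch 1 and 0.81 in batch 2.

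SH3RF2 encodes a protein with a RING finger and SH3 domains, related to the JNK scaffold POSH (SH3RF1). It was 10.25 and 10.34 in siLATS1/2/p53, against 9.77 and 9.77 in siLATS1/2. The sip53 libraries were at 10.63 and 10.74 and the siControl libraries at 9.95 and 9.96, again with no overlap between any 2 groups. The difference was 0.53 ± 0.09 (1.44-fold, adjusted p = 0.0117), and 0.37 after rescaling (adjusted p = 0.0468).

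LYN encodes a SRC-family tyrosine kinase best known from B cells and myeloid cells and also made in epithelial cells. It was 11.45 and 11.53 in siLATS1/2/p53, against 10.79 and 10.95 in siLATS1/2. The sip53 libraries, at 10.99 and 11.06, lay just above the siLATS1/2 libraries, and the siControl libraries were lowest at 10.23 and 10.39. The difference between siLATS1/2/p53 and siLATS1/2 was 0.62 ± 0.10 (1.54-fold, adjusted p = 0.0101), and 0.47 after rescaling (adjusted p = 0.0341).

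ATP6V0E2 encodes an e-subunit isoform of the membrane sector of the vacuolar proton pump. It was 10.86 and 10.83 in siLATS1/2/p53, against 10.34 and 10.45 in siLATS1/2, 10.37 and 10.31 in sip53, and 9.39 and 9.68 in siControl. The groups with a single knockdown overlapped each other, between the highest and the lowest group. The difference between siLATS1/2/p53 and siLATS1/2, 0.46 ± 0.11 (1.37-fold, adjusted p = 0.0373), was the smallest of the 6, and it did not pass after rescaling (0.30, adjusted p = 0.134) or without a mean-variance trend (adjusted p = 0.0532). The libraries were made without strand, and the span of the antisense gene ATP6V0E2-AS1 overlaps this locus in RefSeq annotation. Reads from any stretch in the transcripts of both genes could not be told apart. Spans also overlap for CA3-AS1 at CA2 and for noncoding genes or pseudogenes without a descriptive name at HPSE and SH3RF2. At LYN they overlap for a small nucleolar RNA gene and a pseudogene. None of these was analysed here, and whether exons overlap was not examined.

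**Figure D2:**
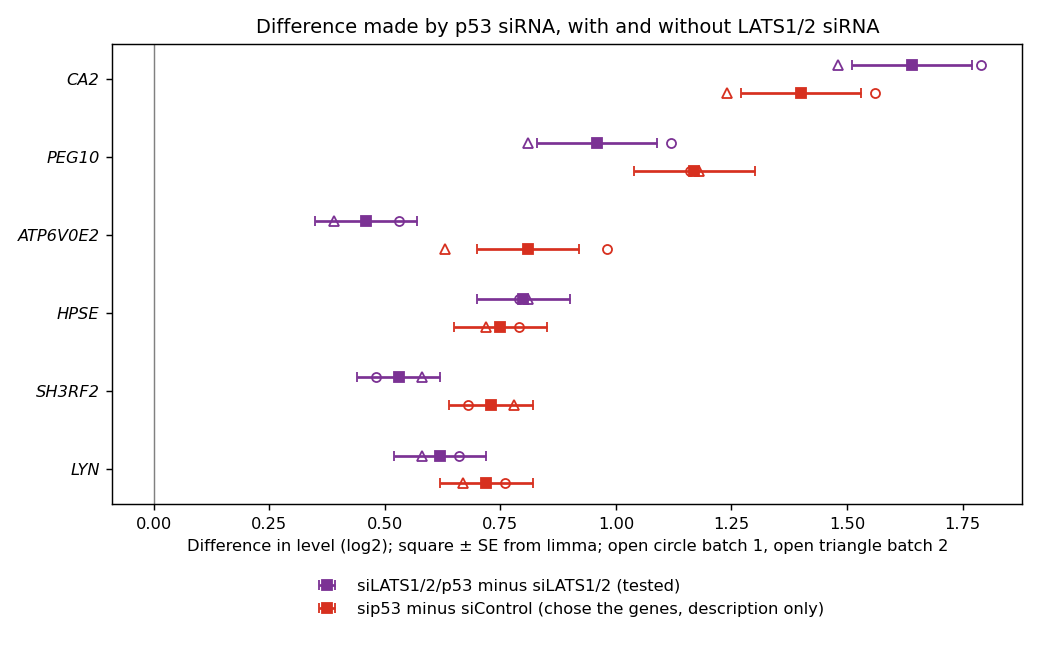
Difference in log2 level (horizontal axis) made by p53 siRNA for each gene, with LATS1/2 siRNA (purple, siLATS1/2/p53 minus siLATS1/2) and without it (red, sip53 minus siControl), as squares ± SE with open symbols for each batch. Every batch of every gene lies above 0, from 0.39 for ATP6V0E2 to 1.79 for CA2 with LATS1/2 siRNA.

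Over all libraries, 5 of the 6 genes, all but ATP6V0E2, were higher in each of the 4 libraries with p53 siRNA than in each of the 4 without, as were 14.8% of all entries, and part of that contrast is the one that chose the genes. CA2 differed by 1.64 with LATS1/2 siRNA and 1.40 without it, and HPSE by 0.80 and 0.75. The difference with LATS1/2 siRNA was smaller for PEG10 (0.96 and 1.17), SH3RF2 (0.53 and 0.73), LYN (0.62 and 0.72) and ATP6V0E2 (0.46 and 0.81). Whether the 2 differences of a gene are unequal was not tested, since the genes were chosen on the second.

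The calls in siLATS1/2/p53 against siLATS1/2 rested on the spread of all 4 groups. Fitted on the 4 libraries compared alone, without the batch, the adjusted p was 0.0559 for CA2 and PEG10, 0.0562 for HPSE, 0.0579 for LYN, 0.0623 for SH3RF2 and 0.0684 for ATP6V0E2, and under the replicate block it was between 0.00187 (CA2) and 0.0165 (ATP6V0E2). CA2 passed whichever library was left out. PEG10 did not pass without siLATS1/2 replicate 1 (adjusted p = 0.0689) or siLATS1/2/p53 replicate 1 (0.0653). HPSE, SH3RF2 and LYN did not pass without siLATS1/2 replicate 1 (adjusted p = 0.0689, 0.0836 and 0.0844), siLATS1/2 replicate 2 (0.058, 0.0758 and 0.0563) or siLATS1/2/p53 replicate 1 (0.0554, 0.0564 and 0.0625). ATP6V0E2 passed only without siControl replicate 1 or 2, with adjusted p between 0.0725 and 0.191 in the other 6 fits. Without both of the libraries of lowest estimated depth, the calls of the 6 genes were lost along with those of all other entries. The differences of the 6 genes were then 0.44 to 1.63. Fits with a single library in siLATS1/2 or siLATS1/2/p53 also called fewer of all entries. A lost call there is thus not particular to these genes.

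LATS1/2 siRNA divided the genes that p53 siRNA raised together. It was tested as the average over both p53 states, that is siLATS1/2/p53 and siLATS1/2 against sip53 and siControl, an average that does not contain the difference on which the genes were chosen. ATP6V0E2, LYN and CA2 rose, HPSE and SH3RF2 fell, and PEG10 did not pass, while 6.66% of all entries were called higher and 8.6% lower (16% and 22.4% under the replicate block). ATP6V0E2 was higher by 0.68 ± 0.08 (1.60-fold, adjusted p = 0.00265), LYN by 0.51 ± 0.07 (1.42-fold, adjusted p = 0.0044) and CA2 by 0.38 ± 0.09 (1.30-fold, adjusted p = 0.029). HPSE fell by 0.36 ± 0.07 (adjusted p = 0.0173) and SH3RF2 fell by 0.28 ± 0.06 (adjusted p = 0.023). For PEG10 the difference was -0.01 ± 0.09 (adjusted p = 0.977), with a 95% interval of -0.22 to 0.21.

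**Figure D3:**
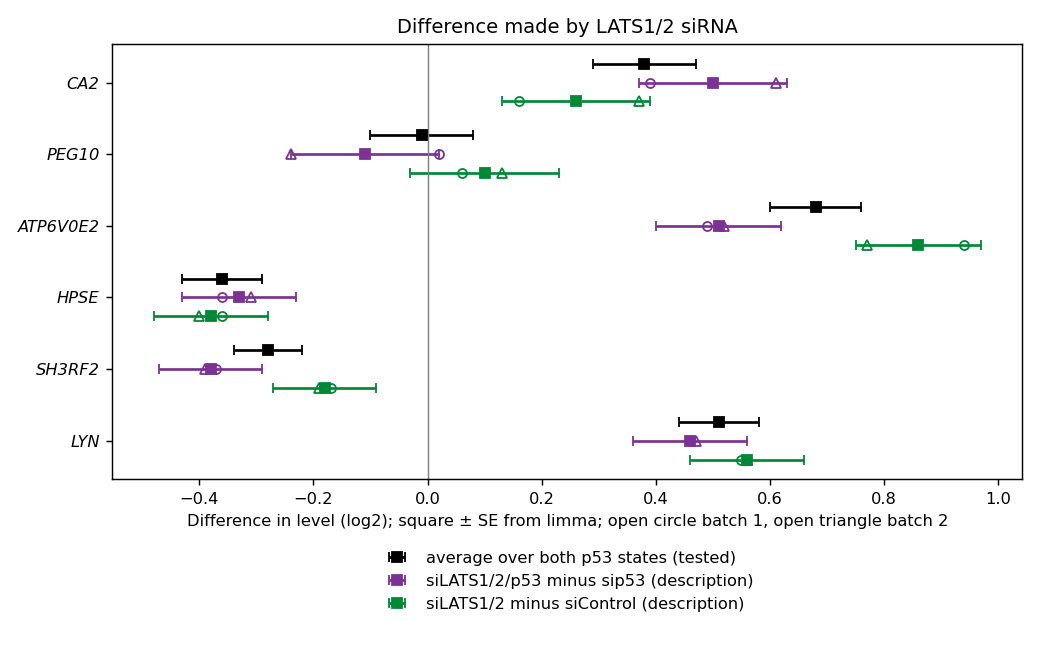
Difference in log2 level (horizontal axis) made by LATS1/2 siRNA, averaged over both p53 states (black), with p53 siRNA (purple, siLATS1/2/p53 minus sip53) and without it (green, siLATS1/2 minus siControl), as squares ± SE with open symbols for each batch. ATP6V0E2, LYN and CA2 lie right of 0 and HPSE and SH3RF2 left of 0 in both p53 states, and PEG10 straddles 0.

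The direction was the same with and without p53 siRNA for the 5 genes called. ATP6V0E2 was 0.51 ± 0.11 higher in siLATS1/2/p53 than in sip53 and 0.86 ± 0.11 higher in siLATS1/2 than in siControl. For LYN the corresponding differences were 0.46 ± 0.10 and 0.56 ± 0.10, and for CA2 they were 0.50 ± 0.13 and 0.26 ± 0.13. For HPSE they were -0.33 ± 0.10 and -0.38 ± 0.10, and for SH3RF2 they were -0.38 ± 0.09 and -0.18 ± 0.09. These differences share libraries with the one that chose the genes and were not tested singly. As a result of the opposite directions, the group with both knockdowns was the highest for CA2, LYN and ATP6V0E2, and sip53 was the highest for HPSE and SH3RF2. Against siControl, siLATS1/2/p53 was higher by 1.90 ± 0.13 for CA2, 1.31 ± 0.11 for ATP6V0E2, 1.18 ± 0.10 for LYN, 1.06 ± 0.13 for PEG10, 0.42 ± 0.10 for HPSE and 0.34 ± 0.09 for SH3RF2.

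ATP6V0E2 and LYN passed in the average whichever library was left out. CA2 passed in 2 of the 8 such fits, HPSE in 3 and SH3RF2 in 1, with the highest adjusted p at 0.111, 0.0735 and 0.105. CA2 did not pass without either siControl library (adjusted p = 0.0842 and 0.055 without replicates 1 and 2), siLATS1/2 replicate 2 (0.0865), sip53 replicate 2 (0.111) or either siLATS1/2/p53 library (0.0851 and 0.0946). HPSE did not pass without siControl replicate 1 (0.0533), either siLATS1/2 library (0.0578 and 0.0672), sip53 replicate 1 (0.0735) or siLATS1/2/p53 replicate 2 (0.058). SH3RF2 passed only without siLATS1/2/p53 replicate 2. Without both of the libraries of lowest estimated depth, ATP6V0E2 alone of the 6 passed.

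Batch of cells was tested with the siRNA group in the model. PEG10 was higher in batch 2 by 0.17 ± 0.06 (adjusted p = 0.0309), a direction seen in siLATS1/2 (0.28), sip53 (0.23) and siControl (0.21) and not in siLATS1/2/p53 (-0.03). Of all entries 12.5% were called higher and 17.8% lower in batch 2. PEG10 did not pass without any single library of siLATS1/2, sip53 or siControl (adjusted p of 0.111 to 0.192), without a filter on low values (0.0504) or without a mean-variance trend (0.119). The other 5 genes did not pass, with adjusted p from 0.0932 (LYN) to 0.724 (CA2), and LYN passed after rescaling (0.14, adjusted p = 0.0397). The batch differences of CA2 ran from -0.23 in sip53 to 0.30 in siLATS1/2.

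Most other genes of each family did not pass in either direction, and neither did most entries. In siLATS1/2/p53 against siLATS1/2, 11.3% of all entries were called higher and 3.22% lower (33.8% and 9.72% under the replicate block). Without both of the libraries of lowest estimated depth, the calls in siLATS1/2/p53 against siLATS1/2 were lost over all entries, the 6 family lists included. Of 25 other carbonic anhydrase and bicarbonate transport genes 10 were tested in siLATS1/2/p53 against siLATS1/2, and 0 rose and 1 fell (1 and 3 under the replicate block). The gene that fell was CA12, which encodes a membrane-bound carbonic anhydrase with its active site outside the cell. It was 11.68 ± 0.05 in siLATS1/2/p53 and 12.50 ± 0.07 in siLATS1/2 (SD, n = 2 each), a fall of -0.82 ± 0.08 (limma, adjusted p = 0.00479), in the direction opposite to CA2. CA12 also fell in sip53 against siControl (-0.66 ± 0.08, adjusted p = 0.0118) and with LATS1/2 siRNA in the average (-1.07 ± 0.06, adjusted p = 0.000133). The anion exchanger gene SLC4A2 differed by 0.33 ± 0.17 (adjusted p = 0.225; 0.00281 under the replicate block).

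PEG10 lies beside SGCE on chromosome 7 and shares its imprinting. Of 26 other imprinted, neighbouring or retrotransposon-derived genes 12 were tested, and 1 rose and 0 fell in siLATS1/2/p53 against siLATS1/2 (4 and 1 under the replicate block). The gene that rose was MEST, another paternally expressed imprinted gene, at 11.75 ± 0.08 in siLATS1/2/p53 and 10.96 ± 0.01 in siLATS1/2 (0.79 ± 0.08, adjusted p = 0.00479). MEST also rose in sip53 against siControl (0.56 ± 0.08, adjusted p = 0.0211). SGCE differed by 0.34 ± 0.10 (adjusted p = 0.0597; 0.00498 under the replicate block), less than PEG10 at 0.96. The retrotransposon-derived gene LDOC1L differed by 0.39 ± 0.11 (adjusted p = 0.0588; 0.00881 with the block).

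Of 24 other vacuolar proton pump genes 20 were tested, and 2 rose and 3 fell (3 and 5 under the replicate block, 1 and 6 after rescaling). Over all entries 11.3% rose and 3.22% fell (33.8% and 9.72% under the replicate block). The pump genes with the smallest p were isoform and accessory genes. ATP6V1B1, an isoform gene of the catalytic sector, rose by 1.58 ± 0.27 (adjusted p = 0.0136) at levels near the floor, 6.79 ± 0.27 in siLATS1/2/p53 and 5.21 ± 0.02 in siLATS1/2. ATP6V0A4, an isoform gene of the membrane sector, fell by 1.44 ± 0.17 (adjusted p = 0.00579) and rose with LATS1/2 siRNA in the average (adjusted p = 4.74e-05). Its levels were 7.56 ± 0.08 in siLATS1/2/p53, 8.99 ± 0.26 in siLATS1/2 and 5.97 ± 0.10 in siControl, and both sip53 libraries were at the floor, so no fold is given for that average. ATP6AP2, which encodes the prorenin receptor and pump accessory protein, fell by 1.02 ± 0.16 (adjusted p = 0.0102). The median difference over the 20 genes was 0.14, beside 0.15 over all entries.

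Of 38 other genes of heparan sulfate chains and their proteoglycans 28 were tested, and 4 rose and 2 fell (10 and 3 under the replicate block, 1 and 2 after rescaling). Over all entries 11.3% rose and 3.22% fell (33.8% and 9.72% under the replicate block). HS6ST1, a sulfotransferase gene of the chain, rose by 0.56 ± 0.09 (adjusted p = 0.0118). NDST1, which encodes an enzyme of the first sulfation step, fell by 0.58 ± 0.14 (adjusted p = 0.0326), and the syndecan gene SDC4 fell by 0.43 ± 0.08 (adjusted p = 0.0153). The median difference was 0.17, near that of all entries.

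Of 21 other genes around SH3RF2 and JNK signalling 19 were tested, and 1 rose and 1 fell (7 and 1 under the replicate block, 0 and 1 after rescaling). The related gene SH3RF3 rose by 0.49 ± 0.09 (adjusted p = 0.0163) and fell with LATS1/2 siRNA in the average by 0.32 ± 0.07 (adjusted p = 0.0189), as SH3RF2 did in both comparisons. PPP1CB, a catalytic subunit gene of protein phosphatase 1, fell by 0.68 ± 0.15 (adjusted p = 0.0256). PAK4, a kinase gene, differed by 0.71 ± 0.20 (adjusted p = 0.0557; 3.29e-05 under the replicate block).

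Of 21 other SRC-family kinase genes and regulators 15 were tested, and 0 rose and 1 fell (2 and 3 under the replicate block). The SRC-family kinase gene FYN fell by 1.22 ± 0.29 (adjusted p = 0.0318), opposite to LYN, and was 6.10 ± 0.23 in siLATS1/2/p53 and 7.32 ± 0.11 in siLATS1/2. The leupaxin gene LPXN differed by -0.60 ± 0.19 (adjusted p = 0.0707) and the ubiquitin ligase gene CBL by 0.39 ± 0.17 (adjusted p = 0.169), and both passed under the replicate block (0.00873 and 0.00185). The median difference was 0.08, below the 0.15 of all entries.

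**Figure D4:**
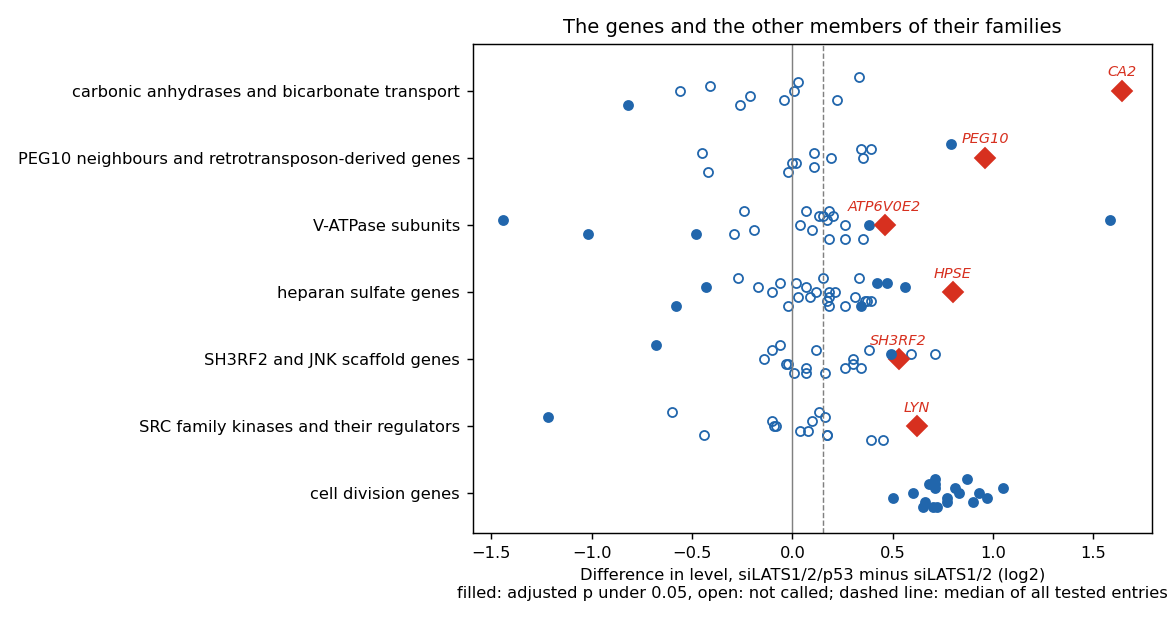
Difference in log2 level between siLATS1/2/p53 and siLATS1/2 (horizontal axis) for the 6 genes (red diamonds) and the other tested genes of each list (circles, filled where adjusted p was under 0.05). CA2, PEG10, HPSE and LYN lie to the right of every other tested gene of their lists, whereas all 20 cell division genes are filled and lie right of 0.

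Cell division genes moved in the same comparisons. Of 20 such genes all 20 rose in siLATS1/2/p53 against siLATS1/2, where 11.3% of all entries were called higher. The list was added after values of these data had been seen, so this count is a description. The median difference over the 20 genes was 0.72. For the 6 genes the median was 0.71, with single differences from 0.46 (ATP6V0E2) to 1.64 (CA2). FOXM1, a mitotic transcription factor gene, rose by 0.90 ± 0.08 (adjusted p = 0.00417). RRM2, which encodes a subunit of ribonucleotide reductase, rose by 1.05 ± 0.10 (adjusted p = 0.00419), and the replication helicase gene MCM2 rose by 0.81 ± 0.08 (adjusted p = 0.0047). All 20 differences stayed positive and 19 passed after rescaling. Without both of the libraries of lowest estimated depth the median was 0.75, and the calls were lost with those of all entries. With LATS1/2 siRNA in the average, 0 of the 20 rose and 9 fell (1 and 6 after rescaling, 1 and 18 under the replicate block), with a median difference of -0.24, beside -0.03 over all entries. The mean level of the 20 genes was 11.99 and 11.91 in siLATS1/2/p53, 11.14 and 11.24 in siLATS1/2, 12.01 and 12.06 in sip53, and 11.61 and 11.57 in siControl. Both siLATS1/2 libraries thus lay well below both siControl libraries, while the siLATS1/2/p53 libraries lay just below the sip53 libraries. With LATS1/2 siRNA, HPSE differed by -0.33 in the presence of p53 siRNA and by -0.38 without it, and SH3RF2 by -0.38 and -0.18. Pearson's r with the mean of the 20 genes, over all libraries, was 0.962 for HPSE, 0.917 for SH3RF2, 0.867 for PEG10 and 0.794 for CA2. It was 0.477 for LYN and 0.289 for ATP6V0E2. The libraries that chose the genes enter each r. In these bulk libraries a changed share of dividing cells and a changed level per cell cannot be told apart. The part of cell division in the rises of the 6 genes was not tested.

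The entries most alike in pattern were found among 2352 tested entries whose level ranged over at least 1 (log2). The measure was Pearson's r over the 8 libraries, which share siRNA groups and batches. These include the sip53 and siControl libraries that chose the genes. A high r with other genes raised by p53 siRNA therefore partly follows from the choice, and no test was made. For HPSE they were RFC4 (0.992), IFT122 (0.991) and IRX5 (0.991), RFC4 being a subunit gene of the replication clamp loader. For CA2 they were the cell cycle transcription factor gene E2F2 (0.987), RRM2 (0.975) and TMEM171 (0.975), and for PEG10 the replication licensing gene CDT1 (0.971), PCOLCE2 (0.968) and TTC28-AS1 (0.967). For SH3RF2 they were the clock gene PER2 (0.976), ANKRD46 (0.968) and PSRC1 (0.964). For ATP6V0E2 they were RASSF5 (0.989), the membrane protease gene ST14 (0.979) and NAT1 (0.976), and for LYN they were COCH (0.983), the urokinase receptor gene PLAUR (0.981) and NAT1 (0.976). NAT1 was among the first 3 for both ATP6V0E2 and LYN, and no other entry was named for 2 of the genes.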

How the data were processed

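The 8 libraries of polyadenylated MCF10A RNA (4 siRNA groups of 2) were made with an unstranded TruSeq kit, per the labels' protocols. TopHat and hg19 are named, without versions, in the submitters' processing notes, and how reads were counted, scaled and floored was not given in the sources used here. As deposited, each value is a normalised log2 level, with those under 5 set to 5, which understates changes of low genes, and the files of single libraries matched the series table in 8 of 8 libraries. Depth was estimated from the steps between linear values in the range of 32 to 80, and no counts could be recovered. The 12315 of 29991 entries that exceeded the floor in 2 or more libraries were fitted with limma 3.58.1 (mean-variance trend) in R 4.3.3 over the 4 groups, with 4 residual degrees of freedom, no pseudocount, and Benjamini-Hochberg adjustment over all entries tested at a threshold of 0.05. The procedure was tested on simulated data with noise independent between libraries. That test does not cover deviations shared by the libraries of a batch. A replicate number marks a batch of cells per the labels. Deviations of libraries with the same number from their group means had correlations of 0.565 to 0.726 over 6 pairs, so the paired values (replicate block) are printed where it changes a call or moves a count by over 1.5 times. The alternatives were rescaling, other filters, a pseudocount, the block, the groups compared alone, other moderation and each library left out, and, chosen after seeing the data, the block with the groups compared alone and leaving out the 2 libraries of lowest estimated depth. The 6 genes and the gene lists were chosen with earlier results of these data known. The other genes named were LATS1, LATS2, CDKN1A and MDM2, the 3 tested genes of each list with the smallest p in siLATS1/2/p53 against siLATS1/2, and the 3 entries most correlated with each gene, entries repeating a symbol being left out. Some results that this rule covers are not reported here. Promoters were taken by symbol from a table of RefSeq promoters for 3 of the 6 genes. The genes on chromosome 8 (CA2 and LYN) were left out beforehand, and PEG10 was not matched.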

Additional observations from a re-analysis of the deposited data

How the results depend on the processing

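The direction of all 6 genes in siLATS1/2/p53 against siLATS1/2, and of the 5 genes called for LATS1/2 siRNA, was the same in all 19 and all 17 alternatives run for them. Calls were lost as given above, and the causes were not tested. The replicate block, which pairs libraries of one batch, kept each call of the 6 genes and raised the number of entries called in limma. For siLATS1/2/p53 against siLATS1/2 it gave 5361 entries, against 1791 without it, 4153 with the block and rescaling, and 3406 with the block and the libraries compared alone. For LATS1/2 siRNA it gave 4737, against 1879 without it, and 4624 with rescaling. For sip53 against siControl it gave 3199, against 475 without it, 2975 with rescaling, and 0 with the libraries compared alone (4072 at an unadjusted p under 0.05). Without the block, the libraries compared alone gave 0 for siLATS1/2/p53 against siLATS1/2 (3673 at an unadjusted p under 0.05) and 0 for sip53 against siControl (2221). Leaving out both of the libraries of lowest estimated depth gave 0 (3173 unadjusted), 272 for LATS1/2 siRNA, 0 (2463 unadjusted) for sip53 and 1059 for batch, against 3732. Without a trend sip53 against siControl gave 294. Leaving out each library gave 12 to 1837, 658 to 1500, 18 to 165 and 1973 to 2684 for the same 4 comparisons. Rescaling changed the share of higher calls in sip53 against siControl to 26.3%, against 45.7%. With 2 libraries per group, and 1 where a library is left out, the spread is taken from the other groups.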
